A study of Macaca mulatta with 24 samples.

Results

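Blood vessels in the brain are built from endothelial cells, which line the lumen and form the blood-brain barrier through tight junctions, efflux pumps and adhesion molecules, and from mural cells that wrap them. Pericytes cover the capillaries and depend on PDGF and Notch signals, whereas smooth muscle cells surround arterioles and carry a contractile apparatus of actin, myosin, tropomyosin and calponin. The genes described here are 41 such vessel wall genes, namely 21 endothelial, 7 pericyte, 7 smooth muscle and 6 genes that several wall cells share. They were taken by symbol from a fixed list, with no threshold on their values, but the list was chosen with earlier results of these data known. Of the 41 symbols, 40 were present in the table of 17208, 37 had an average level of 1 TPM or more (transcripts scaled to length and library total) and were tested, and 3 lay under 1 TPM. *PECAM1* was not analysed here because no row carries that symbol.

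RNA from the nucleus accumbens (NAcc) core of 24 unrelated adult male rhesus macaques was sequenced after polyA selection, once per animal. All animals first passed schedule-induced polydipsia, a procedure that establishes drinking, with water alone for the controls. The 8 control animals had no ethanol and received water and maltose dextrin. The 16 drinkers then had prolonged open access to dilute ethanol. The 8 LD* animals, low and binge drinkers combined, took 0.47 to 2.07 g/kg per day and included the oldest animals. The 8 HD* animals, of which 4 were heavy (HD) and 4 very heavy drinkers (VHD), took 2.74 to 3.78 g/kg per day. Animals belonged to cohorts 4 (2 LD*), 5 (3 Control, 4 HD*), 7a (2 Control, 3 LD*, 4 HD*) and 7b (3 Control, 3 LD*), drinking categories followed from the animals' own intake rather than from assignment, and all brains had been perfused. The deposited values are TPM, a share of each library, which does not carry the read total behind each library, so no counting error is given per animal.

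The libraries carried markers of the labelled tissue, with mean levels of 2497 TPM for *PPP1R1B*, 2638 TPM for *PENK* and 145 TPM for *DRD1*, genes of striatal projection neurons. The 4 libraries of lowest scaling (LD* animal 5, HD* animals 6 and 8, Control animal 8) had a trimmed mean of M-values (TMM) scaling factor of 0.689 to 0.874, against 0.940 to 1.13 in the other 20. The summed level of 12 neuron markers ranged from 2397 to 13661 TPM and was lowest in Control animals 6 and 8. Erythrocyte genes were low, with *HBB* at 3.73 TPM and *ALAS2* at 0.0036 TPM on average. In tissue RNA, fewer vessel cells and less RNA per vessel cell cannot be told apart.

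Each of the endothelial, pericyte, smooth muscle and shared groups held detected members, at levels that differed widely. On the TPM scale, which is per transcript length, the highest mean level was that of *MSN* (moesin, which links membrane to actin) at 65.8 TPM. It was followed by *EGFL7*, a secreted endothelial factor, at 58.2 TPM, *CLDN5*, the main tight junction protein of brain endothelium, at 56.7 TPM, *IGFBP7*, a matrix protein of vessels, at 55.7 TPM and *RGS5*, a pericyte regulator of G protein signals, at 50.6 TPM. Several endothelial receptors and transcription factors were far lower, with *KDR* (VEGF receptor) at 2.36 TPM, *TEK* and *TIE1* (receptors of the angiopoietin pathway) at 3.77 and 3.60 TPM and *ERG* at 2.56 TPM. The co-receptor *ENG*, at 22.6 TPM, was not among these. Among contractile genes, *TPM2* (tropomyosin), *TAGLN* (transgelin) and *MYL9* (myosin light chain) had means of 37.4, 32.0 and 28.5 TPM, while *MYH11*, the smooth muscle myosin heavy chain, had 1.77 TPM and *DES* (desmin) 1.62 TPM.

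The 3 remaining members lay under 1 TPM and did not enter the comparisons between groups. *CNN1*, calponin of mature smooth muscle, ranged from 0.110 to 1.35 TPM in Control, 0.149 to 0.708 TPM in LD* and 0.0372 to 0.459 TPM in HD* animals. *ABCC9*, a subunit of the pericyte potassium channel, ranged from 0.154 to 1.38 TPM over all animals. *ANPEP*, a pericyte peptidase, lay between 0.151 and 0.643 TPM in all animals except LD* animal 6, which had 1.96 TPM.

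Spread between animals of a group differed widely among the members. *MSN* had a within-group SD of 0.143 on the log2(TPM + 1) scale, which placed it at percentile 3.0 of all genes tested, and its levels spanned 52.5 to 91.6 TPM. *ACTA2*, smooth muscle actin, had an SD of 0.597 (percentile 91.1) and spanned 2.72 to 16.5 TPM. *MCAM*, an adhesion molecule of endothelial and mural cells, had an SD of 0.545 (percentile 87.8), and its 8 control levels ran from 21.1 to 92.4 TPM with a median of 39.0 TPM. In the endothelial group the widest was *ESAM*, a junctional adhesion molecule, with an SD of 0.374, and in the pericyte group *KCNJ8*, the potassium channel pore partnered by *ABCC9*, with 0.390.

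The comparison of HD* with Control animals asks whether heavy drinking went with a different level of vessel wall RNA. No member passed an adjusted p of 0.05 (limma, Benjamini-Hochberg over 13637 genes), and the background was the same, with 0% of all genes called and a smallest adjusted p of 0.706 among the members. The study's own test, a model of read counts, did call genes in this contrast and between HD* and LD*. The 0% therefore belongs to the model of TPM used here and does not mean that no gene differed. The estimates nevertheless leaned 1 way: 34 of 37 members (91.9%) had a lower mean in HD*, against 77.8% of all genes tested, with a median difference of -0.21 for the members and -0.12 for all genes on the log2(TPM + 1) scale. At an unadjusted p under 0.05 there were 11 members (29.7%), all lower in HD*, against 5.68% of all genes in either direction (5.29% lower and 0.396% higher), and no gene's groups were free of overlap (0%). After TMM rescaling, which brought the median of all genes to -0.01, 27 of 37 members were lower, 1 had an unadjusted p under 0.05 (2.70%, against 3.65% of all genes) and the member median was -0.09, so the size of the shift depended on the scaling. Because the members were chosen with earlier results of these data known, these counts and those of the comparisons below are descriptions and not independent tests.

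*MSN* had the smallest p. Its levels were 67.6, 73.3 and 91.6 TPM (lowest, median, highest) in Control animals and 54.1, 60.0 and 73.9 TPM in HD* animals. On the TPM scale, 7 of the 8 HD* animals lay below every Control animal, although the groups overlapped through HD* animal 4. TMM rescaling raises HD* animals 6 and 8 (factors 0.838 and 0.689) relative to the rest, and the order of animals after it was not examined. The difference without rescaling was -0.28 ± 0.083 (SE, log2; unadjusted p = 0.0023, limma adjusted p = 0.706).

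The endothelial receptor *TIE1* had 2.92, 4.13 and 4.69 TPM in Control and 2.33, 2.99 and 4.04 TPM in HD* animals, with a difference of -0.29 ± 0.11 (SE; unadjusted p = 0.015, limma). *CDH5*, the cadherin of endothelial adherens junctions, had 5.61, 6.24 and 8.28 TPM in Control and 3.34, 5.04 and 6.598 TPM in HD* animals, with a difference of -0.32 ± 0.12 (SE; unadjusted p = 0.015, limma). The HD* levels of *CDH5* were split, in that HD* animals 1, 6, 7 and 8 had 3.34, 4.11, 3.73 and 3.96 TPM, below all 16 Control and LD* animals, whereas the other 4 had 5.97 to 6.598 TPM. Of the 4 low animals 3 were VHD and 3 were of cohort 7a. HD* animals 6 and 8 were also among the libraries of lowest scaling, with TMM factors of 0.838 and 0.689. The split is on the TPM scale and was not examined after TMM rescaling, which raises these animals relative to the rest.

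Among the rest of the endothelial group, receptors and regulators (*KDR*, *TEK*, *FLI1*) and the efflux pumps of the barrier (*ABCB1*, *ABCG2*) also had unadjusted p-values under 0.05, with differences of -0.28 to -0.37. *CLDN5* and *EGFL7* were the 2 endothelial members with a higher mean in HD* than in Control animals, at 63.9 ± 16.6 against 59.4 ± 9.77 TPM and 64.4 ± 7.58 against 59.0 ± 7.21 TPM (SD, n = 8 each), and neither difference exceeded the spread between animals. *HIGD1B*, a pericyte-enriched gene, was the third such member, at 21.4 ± 5.00 against 17.1 ± 3.65 TPM (SD, n = 8 each), a log2 difference of 0.31.

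**Figure D1:**
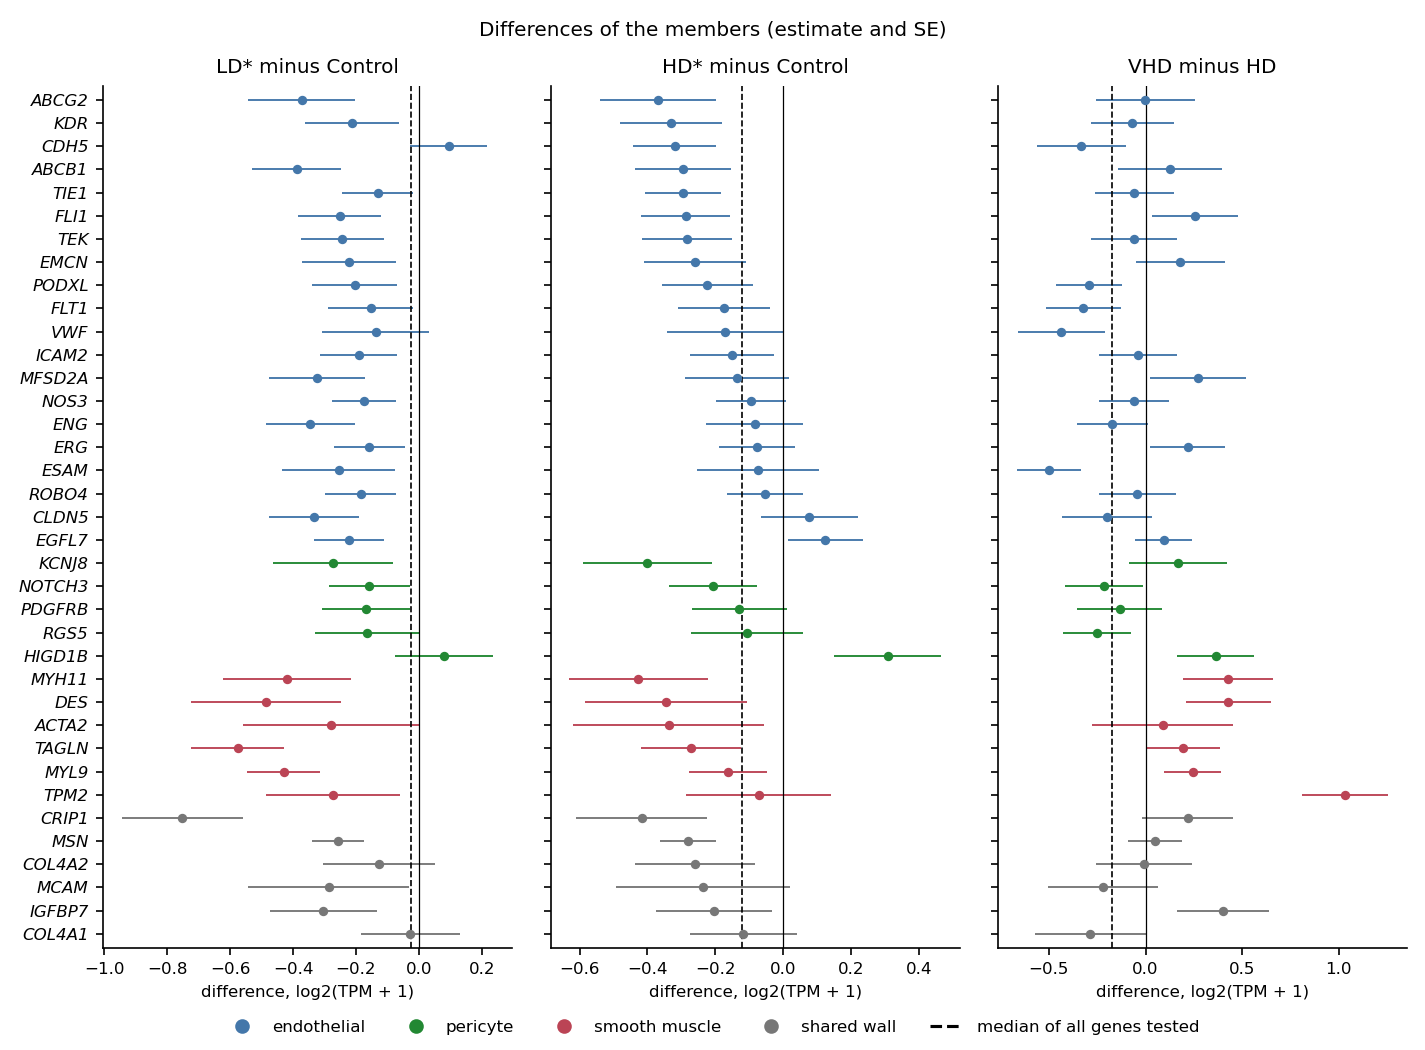
Difference of each of the 37 tested members on the log2(TPM + 1) scale (points, with bars of 1 SE) for LD* minus Control, HD* minus Control and VHD minus HD, with members grouped by colour and the median of all genes tested as a dashed line. In both comparisons with Control nearly all points lie left of 0 (35 of 37 for LD*, 34 of 37 for HD*), and in the last panel TPM2 stands at 1.03.

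The comparison of LD* with Control animals shares the same 8 controls. Here too no member and no gene of 13637 (0%) was called, with adjusted p-values of 0.9999 for the members. A lower mean in LD* was found for 35 of 37 members (94.6%, against 58.1% of all genes), with a member median of -0.24 against -0.03 for all genes, and 10 members (27.0%) had an unadjusted p under 0.05, all lower, against 2.84% of all genes (2.54% lower). With TMM rescaling these were 34 members lower, a median of -0.22 and 7 members (18.9%) against 2.82%.

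The contractile group stood out in size, with 6 of 6 tested smooth muscle members lower and a group median of -0.425. *CRIP1*, a small LIM-domain protein of the shared group, had 16.3, 25.2 and 51.5 TPM in Control and 10.8, 14.2 and 23.2 TPM in LD* animals. Its difference was -0.75 ± 0.19 (SE; unadjusted p = 0.00063, limma), and 7 of the 8 LD* animals lay below the lowest Control animal. That order is on the TPM scale and was not examined after TMM rescaling, which raises LD* animal 5 (factor 0.860). *TAGLN*, which binds actin in smooth muscle, had 27.1, 39.6 and 48.6 TPM in Control and 19.7, 24.5 and 32.0 TPM in LD* animals, a difference of -0.58 ± 0.15 (SE; unadjusted p = 0.00067, limma). *MYL9* had 26.4, 32.6 and 44.8 TPM in Control and 17.4, 24.8 and 29.5 TPM in LD* animals, a difference of -0.43 ± 0.12 (SE; unadjusted p = 0.0010, limma).

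In LD* animals, lower means with an unadjusted p under 0.05 were also found for *MSN* (-0.26), the pumps *ABCB1* (-0.39) and *ABCG2* (-0.37), the lipid transporter *MFSD2A* (-0.32), the TGF-beta co-receptor *ENG* (-0.34), *CLDN5* (-0.33) and *MYH11* (-0.42). *CDH5* and *HIGD1B* were the exceptions to the general direction, at 0.10 and 0.08. Over both drinking groups together against Control, 36 of 37 members had the lower mean (71.4% of all genes) and 11 (29.7%) an unadjusted p under 0.05, all lower, against 5.39% of all genes (5.07% lower), led by *MSN* (-0.27 ± 0.072, SE), *CRIP1* (-0.58 ± 0.17, SE) and *TAGLN* (-0.42 ± 0.13, SE), while none was called (0% of all genes). After TMM rescaling these were 35 members lower, a median of -0.14 and 6 members (16.2%) against 3.98% of all genes. *CRIP1*, *MSN*, *TAGLN* and *EGFL7* were already known to have small p-values in these data. Without them and without rescaling, 9 of 33 members for HD* (5.68% of all genes) and 7 of 33 for LD* (2.84% of all genes) had an unadjusted p under 0.05. The remaining members were also chosen with earlier results known, so leaving these genes out does not make the counts independent.

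**Figure D2:**
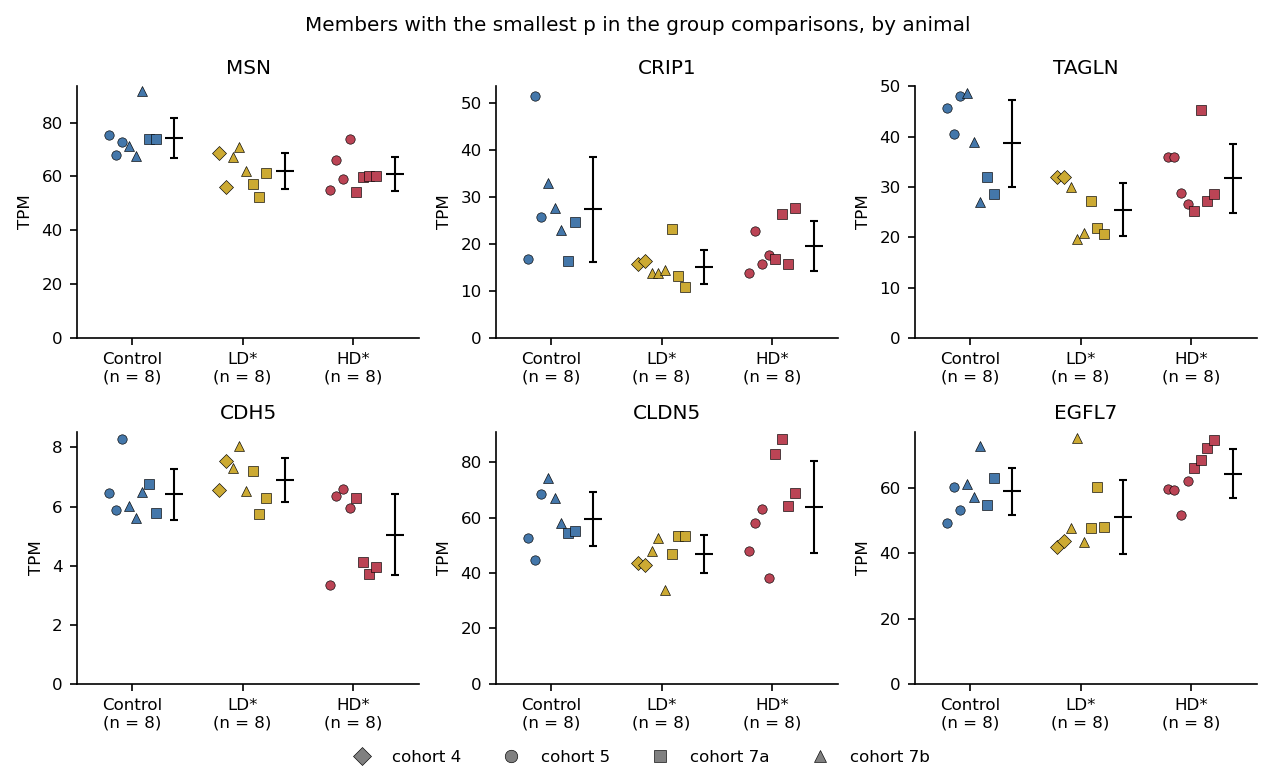
TPM of 6 members in each animal by group (n = 8 each), with symbols for cohorts and the mean ± SD beside each group. MSN, CRIP1 and TAGLN are lower on average in both drinking groups than in Control animals, with overlap, whereas CLDN5 and EGFL7 are lower in LD* than in HD* animals and CDH5 is low in 4 HD* animals. Levels are shown without TMM rescaling.

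A score for each animal, the mean over members of centred log2(TPM + 1), summarises the wall genes. The score of all 37 members was 0.15 ± 0.10 in Control, -0.10 ± 0.16 in LD* and -0.05 ± 0.10 in HD* animals (SD, n = 8 each). Control scores ran from -0.03 to 0.30, LD* scores from -0.40 to 0.12 and HD* scores from -0.14 to 0.12, so that the groups overlapped. Of the 8 Control animals 6 lay above every drinker in this score, the closest by 0.127 against 0.124, and Control animals 7 and 8, both of cohort 7a, were within the drinkers' range. These scores are on the TPM scale without TMM rescaling. HD* animals 6 and 8, with TMM factors of 0.838 and 0.689, scored 0.03 and -0.13. With TMM rescaling the HD* minus Control difference of this score was -0.0811 in place of -0.193, and the order of single animals was not examined.

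Of the member groups, smooth muscle differed most, at 0.23 ± 0.22 in Control, -0.18 ± 0.24 in LD* and -0.04 ± 0.30 in HD* animals (SD). The pericyte score differed least, at 0.08 ± 0.14, -0.06 ± 0.22 and -0.03 ± 0.17, and these differences were smaller than the spread. The endothelial score was 0.13 ± 0.12, -0.09 ± 0.18 and -0.04 ± 0.14, and the score of the shared genes 0.18 ± 0.23, -0.11 ± 0.12 and -0.07 ± 0.19.

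Within cohorts, the difference of the score of all members between HD* and Control animals was -0.17 in cohort 5 (4 and 3 animals) and -0.08 in cohort 7a (4 and 2 animals). The difference between LD* and Control animals was -0.145 in cohort 7a (3 and 2 animals) and -0.38 in cohort 7b (3 animals each). The smooth muscle score differed by -0.36 between HD* and Control in cohort 5 but by 0.02 in cohort 7a, and between LD* and Control by -0.685 in cohort 7b against -0.155 in cohort 7a. These within-cohort differences rest on few animals and carry no test.

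**Figure D3:**
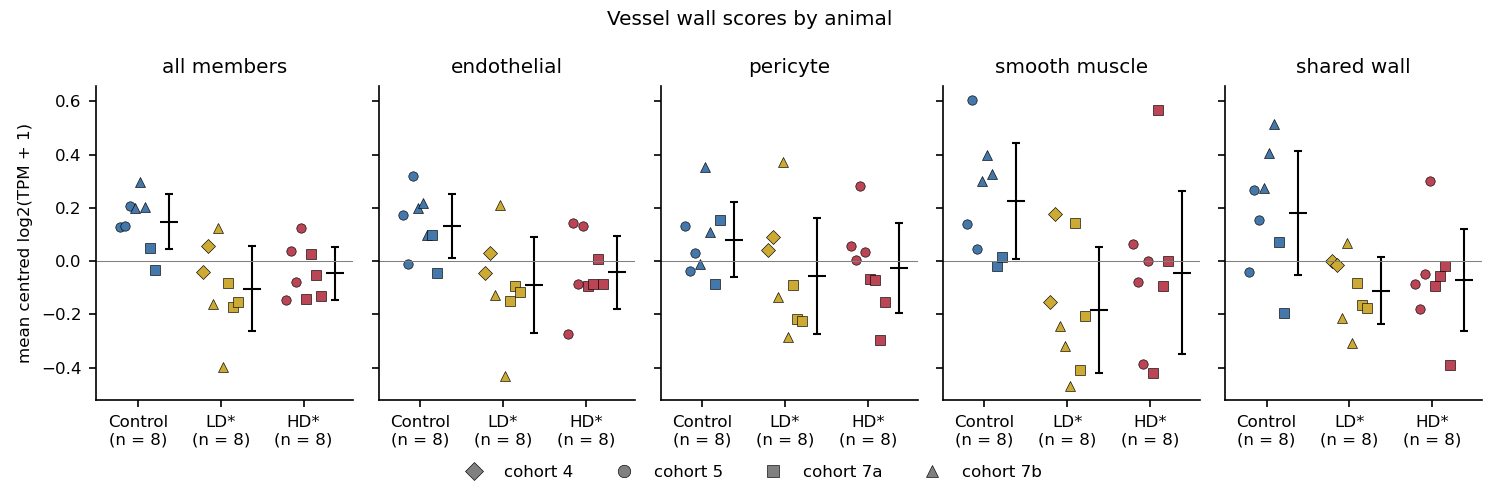
Scores of all 37 members and of the 4 member groups (mean of centred log2(TPM + 1)) in each animal, by group, with symbols for cohorts and the mean ± SD beside each group (n = 8 each). The mean of all members is 0.15 in Control, -0.10 in LD* and -0.05 in HD* animals, and the smooth muscle panel shows the widest spread.

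Between HD* and LD* animals the share of members with a higher mean in HD* depended on the scaling. A lower mean in HD* was found for 16 of 37 (73.3% of all genes), with a member median of 0.04 against -0.08 for all genes, and no gene was called (0%). No member's groups were free of overlap (0.00733% of all genes). At the same time 4 members (10.8%, against 1.08% of all genes, of which 0.748% lower and 0.33% higher) had an unadjusted p under 0.05, and 3 of these were endothelial. After TMM rescaling 6 of 37 members were lower and 31 higher, with a member median of 0.12 against -0.01 for all genes and 6 members (16.2%, against 1.34% of all genes) at an unadjusted p under 0.05. *CDH5* was lower in HD*, at 5.05 ± 1.37 against 6.90 ± 0.754 TPM (SD, n = 8 each; difference -0.41 ± 0.12, SE, unadjusted p = 0.0024, limma adjusted p = 0.937). *EGFL7* was higher in HD*, with 51.8, 64.2 and 74.8 TPM against 42.0, 47.7 and 75.4 TPM in LD* (difference 0.35 ± 0.11, SE; unadjusted p = 0.0045, limma), the LD* maximum being a single animal, with the next at 60.3 TPM. *CLDN5* was higher as well, with 38.2, 63.6 and 88.2 TPM against 33.7, 47.4 and 53.4 TPM (difference 0.41 ± 0.14, SE; unadjusted p = 0.0083, limma). The junctional genes *CDH5* and *CLDN5* thus had estimates of opposite sign, and that of *ESAM*, another junctional gene, was 0.18 ± 0.18 (SE).

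VHD and HD animals were compared within the HD* group, 4 against 4. Many genes were called in this comparison, 14.6% of 13637 (3.23% higher and 11.4% lower), with neuron markers lower and astrocyte and microglia markers higher in VHD animals. Among the members 1 of 37 was called, a smaller share than the background, and 2 of 37 (5.41%) had an unadjusted p under 0.05, against 32.7% of all genes (24.6% lower and 8.08% higher). After TMM rescaling 5 of 37 (13.5%) did, against 36.7% of all genes. The member called without rescaling was *TPM2*, which had 49.1, 40.7, 68.1 and 58.0 TPM in the VHD animals and 36.2, 18.1, 22.2 and 28.6 TPM in the HD animals. All 4 VHD animals lay above all 4 HD animals, and the difference was 1.03 ± 0.22 (SE, log2; limma adjusted p = 0.014). Control animals, at 29.3 to 52.7 TPM, spanned a range between and across both. In a model of all 24 animals with 4 categories the same difference had an adjusted p of 0.056, with 0 genes called, and without HD* animals 6 and 8 it was 0.79 with an adjusted p of 0.10 (limma).

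The other smooth muscle members were also higher in VHD on average, with 6 of 6 above 0 and a median of 0.335 against -0.174 for all genes, although none but *TPM2* passed. *MYL9* had 29.7, 30.8, 33.9 and 31.0 TPM in VHD and 22.7, 29.4, 26.7 and 26.7 TPM in HD animals without overlap, and *DES* had 1.01 to 2.69 against 0.872 to 1.35 TPM (difference 0.43 ± 0.22, SE). Of the endothelial genes 14 of 20 were lower in VHD, near the 65.2% of all genes, and 5 of 20 after TMM rescaling. *ESAM* had 23.5, 27.1, 25.9 and 31.9 TPM in VHD and 48.0, 37.6, 32.6 and 37.1 TPM in HD animals, again without overlap (difference -0.50 ± 0.17, SE; limma adjusted p = 0.062), and *FLT1*, a VEGF receptor, was the fourth member whose categories did not overlap. Such separation was found for 23.3% of all genes. All these separations are on the TPM scale. They were not examined after TMM rescaling, which raises the VHD animals HD* 6 and 8 (factors 0.838 and 0.689) relative to the others.

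Values of other cells moved with this comparison. All 12 neuron markers were lower in VHD and 9 were called, with a summed level of 5034 to 7137 TPM against 10820 to 12146 TPM in HD animals. Of 9 astrocyte markers 8 were higher and 2 called (*GFAP*, *S100B*), with a sum of 7006 to 10179 against 3673 to 5532 TPM, and of 12 microglia markers 9 were higher and 4 called (*AIF1*, *C1QA*, *C1QB*, *C1QC*), with a sum of 455 to 773 against 350 to 451 TPM. Of 10 oligodendrocyte markers *MBP* was called, and none of the fibroblast, blood or ependymal markers was. No marker in any list was at 0 in all animals. The part of these differences in the levels of *TPM2* and *ESAM* was not tested.

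**Figure D4:**
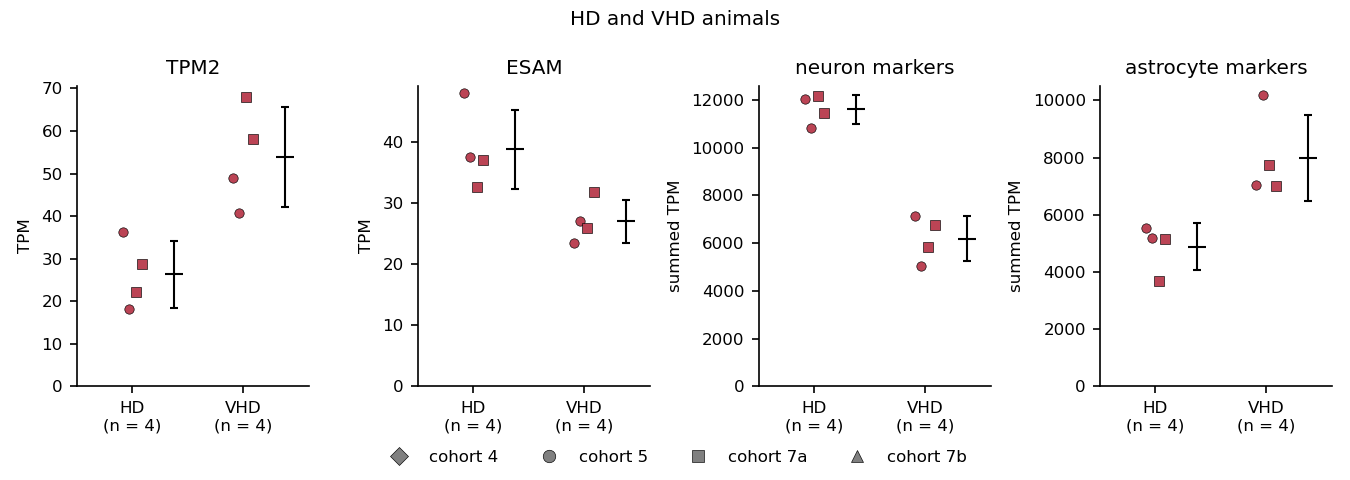
Levels of TPM2 and ESAM (TPM) and summed levels of 12 neuron and 9 astrocyte markers (TPM) in the 4 HD and 4 VHD animals, with symbols for cohorts and the mean ± SD beside each category. On this scale, without TMM rescaling, the HD and VHD animals do not overlap in any of the 4 panels. TPM2 and astrocyte markers are higher and ESAM and neuron markers lower in VHD animals.

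Daily intake was examined within the drinking groups, in a model of the 16 drinkers with group as a term. None of the members was called (0% of all genes), and 3 (8.11%, against 8.12% of all genes, of which 5.51% lower and 2.6% higher) had an unadjusted p under 0.05, all endothelial and all with lower levels at higher intake. This count was 0 after TMM rescaling (9.49% of all genes) and 0 without LD* animal 5. A slope below 0 was found for 30 of 37 members and 67.5% of all genes. The slopes were -0.39 ± 0.16 per g/kg for *ENG*, -0.41 ± 0.19 for *ESAM* and -0.29 ± 0.13 for *ROBO4*, a guidance receptor that stabilises vessels (SE, log2; limma adjusted p = 0.499 each). Without the group term the slopes were 0.0458, 0.0027 and 0.004, so that their sign rested on that term.

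Cohort accounted for no called member in a model with group and cohort (0% of all genes), and no member had an unadjusted p under 0.05 (8.36% of all genes did), whereas after TMM rescaling 4 had (10.8%, against 9.62% of all genes). By limma's F test the smallest p-values were those of *CLDN5*, *ENG* and *EGFL7* (limma adjusted p = 0.540 each). Whether the effect of drinking differed between cohorts was tested with an interaction term, and again none of the members was called (0% of all genes in both tests).

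For HD* in cohort 7a against cohort 5, 1 member (2.70%, against 2.16% of all genes, of which 1.72% lower) had an unadjusted p under 0.05, and 12 of 37 estimates were below 0 (58.8% of all genes). *PDGFRB*, the PDGF receptor of pericytes, was that member. In cohort 5 its levels were 16.4 to 17.7 TPM in 3 Control and 18.0 to 21.1 TPM in 4 HD* animals, whereas in cohort 7a they were 18.4 and 22.0 TPM in 2 Control and 11.7 to 17.0 TPM in 4 HD* animals. The HD* animals thus lay above the controls in the first cohort and below them in the second, and the difference of differences was -0.69 ± 0.24 (SE; unadjusted p = 0.014, limma adjusted p = 0.9999). *KCNJ8* (-0.66) and *CLDN5* (0.54) followed without reaching an unadjusted p of 0.05.

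For LD* in cohort 7b against cohort 7a, 6 members (16.2%, against 2.29% of all genes) had an unadjusted p under 0.05, all lower (1.86% of all genes), and 26 of 37 estimates were below 0 (69.1% of all genes). They were led by *IGFBP7*, *MYH11* and *ACTA2*. *IGFBP7* had 64.0, 84.2 and 84.1 TPM in the Control and 44.9, 48.5 and 34.4 TPM in the LD* animals of cohort 7b, and 40.8 and 57.1 against 48.9, 56.3 and 48.1 TPM in cohort 7a (-0.93 ± 0.29, SE). *ACTA2* had 9.13, 10.0 and 8.08 against 5.46, 4.10 and 3.00 TPM in cohort 7b, and 7.29 and 4.36 against 11.8, 4.21 and 9.74 TPM in cohort 7a (-1.41 ± 0.50, SE). *MYH11* followed the same order, with 2.01 to 3.21 against 0.560 to 0.940 TPM in cohort 7b and 1.37 to 1.63 against 0.977 to 2.18 TPM in cohort 7a (-1.06 ± 0.34, SE). The unadjusted p-values were 0.0095, 0.018 and 0.0095, and none passed the adjustment (limma adjusted p = 0.989).

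Co-variation of the members was described after removing group means, over 24 animals. The median Pearson's r over 190 pairs of endothelial members was 0.30 (Spearman's rho 0.27), against 0.14 between endothelial members and all other genes tested. For 15 pairs of smooth muscle members it was 0.22, against -0.01 with all other genes. For 10 pairs of pericyte members it was 0.08, against 0.10 with all other genes, so that the 5 tested pericyte genes varied together no more than with other genes. Endothelial and smooth muscle members had a median r of 0.06. All genes of a library share its scaling, and these correlations are descriptions without a test.

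The 3 closest pairs lay within member groups. They were *FLT1* and *PODXL*, a sialomucin of the luminal surface (r = 0.92, rho = 0.94), the efflux pumps *ABCB1* and *ABCG2* (r = 0.82, rho = 0.86) and the contractile genes *ACTA2* and *MYH11* (r = 0.82, rho = 0.79). *RGS5* co-varied with *FLT1* (r = 0.73, rho = 0.73) and had a median r of 0.42 with endothelial members, above its 0.24 with pericyte members. *VWF*, *EGFL7* and *CLDN5*, all endothelial, had median r values of only 0.02, 0.04 and 0.10 with the other endothelial members. *DES* ran against *ESAM* (r = -0.59, rho = -0.64), and *TPM2* against *CDH5* (r = -0.53, rho = -0.48).

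**Figure D5:**
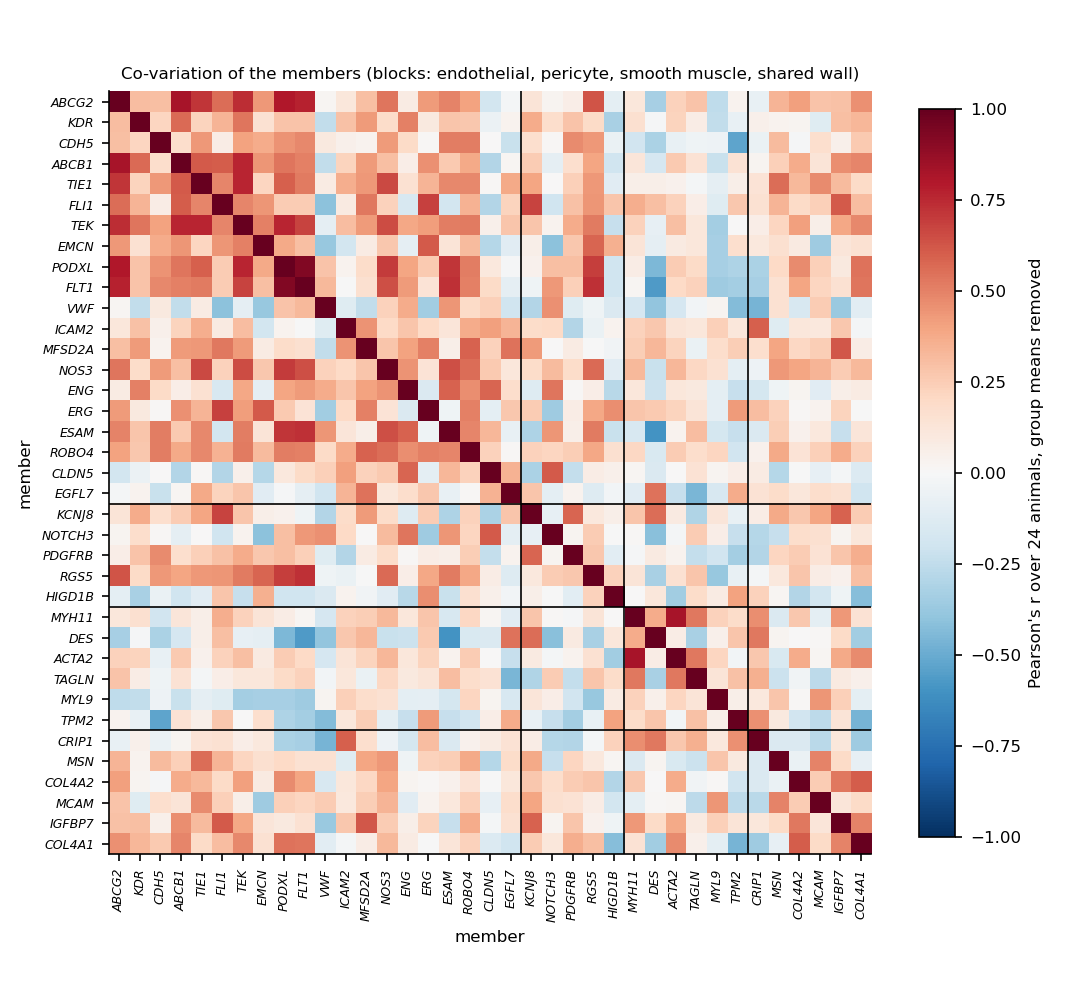
Pearson's r between the log2(TPM + 1) levels of the 37 tested members over 24 animals with group means removed, as a colour scale from -1 (blue) to 1 (red), with lines between the endothelial, pericyte, smooth muscle and shared wall members. Red pairs gather in the endothelial block, as for FLT1 and PODXL (0.92), and around ACTA2 and MYH11 (0.82), while the pericyte block is pale.

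There were 2 pairs of members that are neighbours in gene order in the RefSeq annotation (T2T-MMU8v2.0, in which all 41 symbols were found). With group means removed, *COL4A1* and *COL4A2*, the paired chains of basement membrane collagen IV, had r = 0.61 and rho = 0.59 over 24 animals, against a median r of 0.12 over the 15 pairs of shared members. *KCNJ8* and *ABCC9*, the pore and regulatory subunits of a potassium channel, had r = 0.64 and rho = 0.69, although *ABCC9* lay under 1 TPM, against a median r of 0.08 over the 10 pairs of pericyte members. Within cohorts 5, 7a and 7b (7, 9 and 6 animals, group means kept) the collagen pair had r = 0.22, 0.79 and 0.68, and the channel pair 0.55, 0.74 and 0.68. These values too are descriptions, since groups, cohorts and library scaling are shared by the animals compared.

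The wider vascular genes gave the following for HD* against Control, where none was called and the lists overlap in function with the members. Over all genes, 77.8% were lower, 5.68% had an unadjusted p under 0.05 and the median was -0.121. Of 16 tested genes of barrier transport and tight junctions, 16 were lower in HD* and 4 had an unadjusted p under 0.05, with a median of -0.24. *CAV1*, caveolin of endothelial caveolae, had 4.22, 6.27 and 7.38 TPM in Control and 1.90, 3.93 and 4.60 TPM in HD* animals (difference -0.65 ± 0.14, SE; unadjusted p = 7.9e-05, limma adjusted p = 0.706). Of 15 endothelial transcription factors 15 were lower (median -0.165, 2 at p under 0.05), led by *FOXC1* (3.25 ± 0.805 against 2.12 ± 0.474 TPM, SD). Of 15 basement membrane genes 14 were lower (median -0.171, 4 at p under 0.05), led by *NID2*, nidogen (2.17 ± 0.444 against 1.46 ± 0.268 TPM, SD). After TMM rescaling, when 51.7% of all genes were lower and 3.65% had an unadjusted p under 0.05, these were 14 of 16 lower with 2 at p under 0.05 for barrier genes, 12 of 15 with 1 for transcription factors and 12 of 15 with 1 for basement membrane genes.

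The remaining lists stayed near the median of all genes. Of 24 vascular ligands and receptors 20 were lower (median -0.14), led by *TGFBR2* (-0.37). Of 17 contractile genes and regulators of the SRF program 13 were lower (median -0.12), led by *TLN1*, talin (-0.26), and of 9 other mural genes 7 were lower (median -0.10), led by *DLC1* (-0.31). Between VHD and HD animals 11 of the 96 genes tested in these lists (11.5%) were called, below the 14.6% of all genes. They were higher for *LMO2* (0.49) and *VEGFB* (0.57) and lower for *LAMB1*, a laminin chain (-1.66), *MKL2* and *MKL1*, cofactors of SRF (-1.16 and -0.66), *VCL* (-0.75), *INSR* (-0.75), *LRP1* (-0.59), *JAG2* (-0.67), *PDGFB* (-0.65) and *COL4A3BP* (-0.77), the last a ceramide transfer protein rather than a matrix component.

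Markers of other cells, in the comparison of HD* with Control, gave medians of 0.33 for 12 neuron, -0.18 for 9 astrocyte, -0.37 for 10 oligodendrocyte, -0.18 for 12 microglia, -0.34 for 8 tested perivascular fibroblast, 0.18 for 4 tested blood and -0.32 for 6 tested ependymal markers, and none was called. The genes of smallest p were *TAC1* (0.42), *AQP4* (-0.48), *UGT8* (-0.60), *CX3CR1* (-0.35), *PDGFRA* (-0.48), *PTPRC* (-0.20) and *FOXJ1* (-0.74). Summed fibroblast markers were 87.6 to 195 TPM in Control and 74.3 to 115 TPM in HD* animals, and summed astrocyte markers 4407 to 13258 and 3673 to 10179 TPM. In LD* animals the 12 neuron markers were all higher in mean than in Control, with a median of 0.33, and all 10 oligodendrocyte markers lower, with a median of -0.465 (58.1% of all genes were lower). The lowest neuron sums were those of Control animals 6 and 8, at 2397 and 3532 TPM. By group median the neuron sum ran the other way, at 8377 TPM in LD* and 8590 TPM in Control animals. The oligodendrocyte sum was highest in Control animal 6 (9942 TPM), with group medians of 2822 TPM in LD* and 3509 TPM in Control animals. The part of all these markers in the vessel wall differences was not tested.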

How the data were processed

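The authors prepared polyA-selected libraries, aligned reads to MacaM with STAR 2.5.2b, kept unique alignments and counted genes with HTSeq 0.6.1p1. The deposited values are TPM made by the authors, although their table is described as normalized counts, and columns sum to 999998 to 1000000. Gene lengths used are not given in the sources used here, and the sources differ on strand and read pairing. Values were analysed as log2(TPM + 1), so folds of low genes are understated. The test was limma 3.58.1 (R 4.3.3), fitted to the 13637 of 17208 symbols that averaged 1 TPM or more (trended empirical Bayes, Benjamini-Hochberg, threshold 0.05), a test first run on simulated data with 200 changed genes. A count model was not used, since read counts and totals per library are not part of the table used here. Scores and correlations used Python 3.11.15, numpy 2.4.6, pandas 2.3.3 and scipy 1.17.1, and plots matplotlib 3.10.9. Animals were grouped by the labels, each animal being 1 replicate.

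Named genes are, in each comparison, the 3 members of smallest p; in each member group the 2 with the highest mean and the 1 with the widest spread; members called or under 1 TPM; and, per other list, the gene of smallest p between HD* and Control and any called. *FLT1*, *PODXL* and genes cited for co-variation or an unadjusted p were picked after their values were seen, as were some given for their level. Members and lists were chosen with earlier results of these data known. Alternatives were other pseudocounts (0.1, 8), filters (10 TPM, none), TMM rescaling (30% of M and 5% of A trimmed), other models, single cohorts and each animal left out. No sequences are shown.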

Additional observations from a re-analysis of the deposited data

Results flagged for a closer look

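In 93 groups of member levels or scores, the highest or lowest animal was compared with its nearest neighbour relative to the range, and 9 groups held an animal beyond Dixon's limit. Chance alone gives about 1 such animal in 20 groups. The animals far from the rest of their group were spread over 8 libraries.

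Among endothelial genes, *CDH5* was 8.28 TPM in Control animal 3 (others 5.61 to 6.78 TPM), *TIE1* was 5.24 TPM in LD* animal 4 (others 2.84 to 3.83 TPM) and *ENG* was 10.2 TPM in LD* animal 5 (others 19.2 to 24.01 TPM). LD* animal 5 also had the lowest score of all members, at -0.40, and a TMM factor of 0.860. Among mural genes, *MYH11* was 3.19 TPM in HD* animal 6 (others 0.793 to 1.61 TPM) and *ANPEP* was 1.96 TPM in LD* animal 6 (others 0.1512 to 0.5265 TPM). Among shared genes, *CRIP1* was 51.5 TPM in Control animal 2 (others 16.3 to 33.0 TPM) and 23.2 TPM in LD* animal 6 (others 10.8 to 16.3 TPM), *MSN* was 91.6 TPM in Control animal 6 (others 67.6 to 75.4 TPM), and *IGFBP7* was 97.6 TPM in HD* animal 4 (others 38.1 to 65.3 TPM). Without Control animal 6, the difference of *MSN* between HD* and Control was -0.24 in place of -0.28 on the log2 scale.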

How the results depend on the processing

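The count of called members remained 0 in each of the 8 comparisons other than VHD against HD under every alternative run. Between VHD and HD it was 1 and became 2 with a 10 TPM filter (*ESAM*, *TPM2*), 2 with TMM rescaling (*TPM2*, *IGFBP7*), 0 in the model of 4 categories, 0 without the libraries of low TMM factor (an alternative chosen after seeing the data), and 0 to 2 when single animals were left out, with none left without HD* animal 5 or 6. Over all genes, 1997 called became 2582 with TMM, 2757 with cohort as a covariate, 606 without the low-factor libraries, and 476 to 4651 without single animals.

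The 15 score differences kept their direction except that the pericyte score for HD* minus Control was 0.0073 with TMM, and that for HD* minus LD* the endothelial, pericyte and shared scores turned when 1 animal was left out and the smooth muscle score without the low-factor libraries. The score of all members for HD* minus Control moved from -0.19 to -0.0811 with TMM. The unadjusted counts moved most. For HD* against Control 11 members became 3 in cohorts 5 and 7a alone (8.11%, against 1.31% of all genes). With cohort as a covariate they became 5 (13.5%, against 3.62% of all genes). Without single animals they became 3 to 12 (3 without HD* animal 1 or 5, 4 without HD* animal 3 or 8 or Control animal 5, 5 without Control animal 2 or 4, 7 without Control animal 1 or 3 or HD* animal 6 or 7), while the share of all genes ran from 2.3% to 15.8%. For LD* against Control 10 became 5 to 15 without single animals (5 without LD* animal 5, 6 without Control animal 5), while the share of all genes ran from 1.8% to 5.18%. Over both drinking groups 11 became 6 without Control animal 5 (16.2%, against 3.06% of all genes). Without the low-factor libraries these 3 counts were 8, 6 and 10, or 21.6%, 16.2% and 27% of the members, against 2.21%, 5.63% and 5.64% of all genes. For the intake slope 3 members became 0 with TMM (9.49% of all genes) and 0 to 5 without single animals (0 without LD* animal 5, 1 without LD* animal 1, 3 or 7 or HD* animal 1 or 7, 5 without LD* animal 4), while the share of all genes ran from 2.2% to 16.6%.

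Of 42 member differences, 30 kept their sign in all alternatives. For HD* minus Control, TMM gave 0.0386 for *ENG*, 0.0501 for *ESAM*, 0.0176 for *RGS5*, 0.058 for *ROBO4* and 0.0522 for *TPM2*. Cohorts 5 and 7a alone gave 0.0163 for *IGFBP7*, 0.0532 for *MCAM* and 0.0075 for *ROBO4*, and the cohort covariate 0.0318 for *MCAM* and 0.0015 for *TPM2*. Leaving out low-factor libraries gave -0.0436 for *CLDN5* and 0.0348 for *PDGFRB*. Single omissions spanned -0.154 to 0.0211 for *ESAM*, -0.0922 to 0.0004 for *ROBO4* and -0.197 to 0.0681 for *TPM2*. Without the group term, intake slopes were 0.0458 for *ENG*, 0.0027 for *ESAM* and 0.004 for *ROBO4*. The cause was not tested. No paired analysis was possible because replicate numbers name animals and pair none.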
